A study of Mus musculus with 7 samples.

Results

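The 7 mouse sirtuin genes, Sirt1 to Sirt7, were followed through open chromatin and TRF2 occupancy in muscle stem cells (MuSCs), the Pax7-expressing cells that repair skeletal muscle. They were chosen by name as a gene family and are 7 of 21911 protein-coding genes in the GENCODE M21 annotation (mm10). For each gene, peaks were read in its body and in 3 kb on either side of its start, in 4 ATAC libraries and 3 CUT&Tag libraries. ATAC marks DNA that the transposase Tn5 can reach, and CUT&Tag marks DNA near the protein that an antibody binds. The ATAC libraries came from sorted hind limb MuSCs labelled 0 h (no injury is stated), with 2 from Control mice and 2 from TRF2KO mice, in which a tamoxifen-inducible Cre driven by Pax7 removes the floxed Terf2 gene in MuSCs. The genotype field of all 4 ATAC libraries reads wild type, so their genotypes were taken from the titles. The CUT&Tag libraries came from MuSCs of injured tibialis anterior muscle of mice labelled wild type (per the methods, Pax7 Cre and TdTomato alleles without Terf2 deletion), with 2 TRF2 replicates and 1 IgG library, labelled 3 days after notexin, a muscle-damaging venom component, while the study's methods give a shorter interval and add the gastrocnemius. Per the methods, tamoxifen was started in young adult mice on a C57BL/6 background. The age at isolation and the number of mice pooled per library were not given in the sources used here, so the spread between libraries may be technical in part.

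Sirtuins are enzymes that spend NAD+ to take acetyl or other acyl groups off lysines. Sirt1, Sirt6 and Sirt7 encode mainly nuclear enzymes, Sirt2 a mainly cytoplasmic one, and Sirt3, Sirt4 and Sirt5 mitochondrial ones. In MuSCs, SIRT1 is known for tying the change of metabolism at activation to histone acetylation. TRF2, encoded by Terf2, is a telomere protein that also binds elsewhere in the genome, and G-quadruplexes, folded structures of guanine-rich DNA, are among the sequences that it is known to recognise.

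The promoters of the family differed widely in sequence, and the stretches below are shown because they hold, or lie beside, the TRF2 peaks described later. They are exon-free reference sequence upstream of RefSeq starts, on the strand of the gene (GRCm38, the assembly behind mm10), together with a TRF2 peak inside Sirt2. Capitals mark a G-quadruplex pattern (4 runs of at least 3 guanines with loops of up to 7 bases), the Sp box GGGCGG, the bHLH-zip E-box CACGTG, the CCAAT box or the myogenic E-box CAGCTG, on either strand. Upstream of Sirt3 and Sirt7 the sequence is exonic in the transcripts annotated there, so none is shown.
Sirt1 upstream, chr10:63339051-63339285, minus strand: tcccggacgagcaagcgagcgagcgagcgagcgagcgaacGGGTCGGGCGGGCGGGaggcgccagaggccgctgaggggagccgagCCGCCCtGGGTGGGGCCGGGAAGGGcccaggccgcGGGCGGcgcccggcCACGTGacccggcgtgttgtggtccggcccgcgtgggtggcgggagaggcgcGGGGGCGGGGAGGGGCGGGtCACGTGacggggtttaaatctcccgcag
Sirt2 upstream, chr7:28766641-28766734, plus strand: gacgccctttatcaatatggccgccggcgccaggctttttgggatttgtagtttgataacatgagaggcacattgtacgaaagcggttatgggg
Sirt5 upstream, chr13:43365285-43365495, plus strand: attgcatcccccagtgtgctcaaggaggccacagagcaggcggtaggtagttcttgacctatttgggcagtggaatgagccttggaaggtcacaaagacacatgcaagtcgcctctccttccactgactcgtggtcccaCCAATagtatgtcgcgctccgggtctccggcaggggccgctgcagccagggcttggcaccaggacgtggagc
Sirt6 upstream of its downstream RefSeq start, chr10:81627323-81627471, minus strand: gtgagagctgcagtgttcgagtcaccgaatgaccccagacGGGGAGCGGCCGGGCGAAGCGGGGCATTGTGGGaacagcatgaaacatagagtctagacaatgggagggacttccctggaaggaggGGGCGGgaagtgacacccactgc
Sirt2 intron, TRF2 replicate 2 peak, chr7:28774339-28774528, plus strand: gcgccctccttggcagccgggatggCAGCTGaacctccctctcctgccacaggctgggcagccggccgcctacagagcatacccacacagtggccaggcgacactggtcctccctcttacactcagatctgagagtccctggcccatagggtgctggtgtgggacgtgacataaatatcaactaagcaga

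Sirt1 stood at the guanine-rich end of the family. Its RefSeq promoter window, from 250 bases before to 50 after the start, was 79.0% G and C, above 98.1% of 20150 windows of the same length, against a median of 57.0% over all windows. It held the G-quadruplex pattern, which 22.7% of the windows hold, as well as 7 copies of GGGCGG, the Sp box (47.8% of windows hold at least 1), and 2 of CACGTG, an E-box read by bHLH-zip factors (8.03%). The Sp boxes overlap the G-quadruplex runs in part. The other members' windows ran from 50% in Sirt2 to 64.7% at the inner start of Sirt3, and of these only the window of the inner Sirt6 start held the G-quadruplex pattern. The letters GCATGCGC, the core of the NRF1 site and present in 3.65% of windows, were found at the outer start of Sirt6 and at Sirt7. TTAGGG, the telomere repeat unit, was in none of the 9 windows of the members, against 10.6% of all windows, and TATAAA was in none either, against 12.1%. These matches describe letters and are not evidence of binding.

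The libraries were read as lists of peaks called one library at a time with MACS. The ATAC lists held 84102 to 100521 peaks, the TRF2 lists 12290 and 15479, and the IgG list 656. A fold is the pileup of fragments at the summit over the background of the same library. The fragments behind a peak were solved from its fold and p-value, with a median of 27 to 30 per ATAC peak and 9 to 10 per CUT&Tag peak. The background, solved likewise, was a single value in each ATAC list, at 3.35 and 4.56 in Control and 3.37 and 3.41 in TRF2KO. In the CUT&Tag lists it varied between peaks. Intervals on fragment numbers are exact Poisson ones and cover counting error only. All 9 MuSC markers, Pax7 and Myf5 among them, had a start peak in all 4 ATAC lists. Of the markers of other cells, 1 of 4 for blood, 1 of 3 for endothelium, 1 of 3 for fibro-adipogenic cells, 2 of 4 for mature fibres and 2 of 2 for smooth muscle did, and Ptprc, Itgam, Cd3e, Pdgfra, Ly6a and Myh4 had a start peak in none. The targeted gene Terf2 had start-peak folds of 54.3 and 48.4 in Control and of 21.5 and 18.6 in TRF2KO, a log2 difference of -1.46 (SE 0.11, limma with Benjamini-Hochberg adjusted p = 2.09e-05). At Terf2 the libraries titled TRF2KO both lay below the Control libraries.

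All 7 sirtuin genes had an ATAC peak within 500 bp of the GENCODE start in all 4 libraries, against 58.8% of protein-coding genes. They were not equally open. By the mean percentile of the start-peak fold within each library's own list, the order was Sirt2 (98.9), Sirt3 (91.8), Sirt1 (91.3), Sirt4 (90.1), Sirt6 (88.7), Sirt5 (84.3) and Sirt7 (71.7). Within each of the 4 libraries this order held by fold, except that Sirt1 and Sirt3 changed places between libraries. Sirt1 was above Sirt3 in Control 1 and below it in the others, so the order of these neighbours was within the spread.

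Sirt2 had the highest start peak of the family, with folds of 143 and 122 in Control and of 137 and 145 in TRF2KO. In fragments, the Control 1 summit held 622 (95% interval 574 to 673). The gene (ENSMUSG00000015149.14, chr7:28766735-28788661, plus strand) starts 777 bp from the divergent start of Nfkbib, and the start peak covers both starts, so its height cannot be shared out between them.

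**Figure D1:**
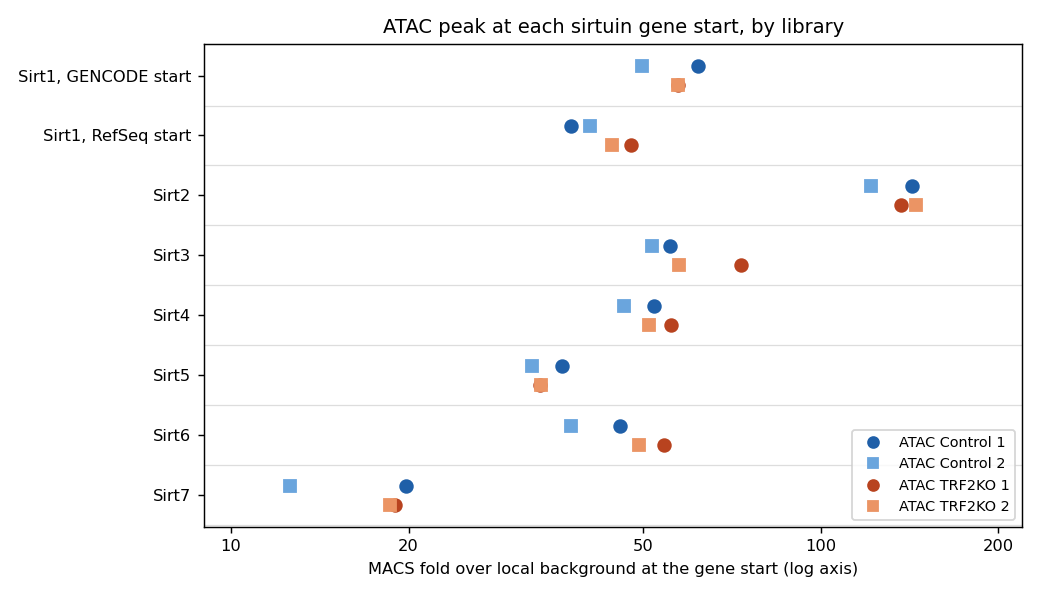
MACS fold of the ATAC peak at each sirtuin gene start (log axis), with a point for each of the 2 Control and 2 TRF2KO libraries and with Sirt1 shown at both its GENCODE and its RefSeq start. Sirt2 sits above 100 in all 4 libraries and Sirt7 at 19.8 or below, and the colours mix at most genes.

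Sirt1 (ENSMUSG00000020063.16, chr10:63319005-63381704, minus strand) has annotated starts far apart. The GENCODE start at 63381704 belongs to a long transcript and lies 739 bp from the start of Dnajc12, which its peak also covers. There the folds were 61.9 and 49.7 in Control and 57.2 and 57.2 in TRF2KO. The RefSeq start at 63339035 lies 42669 bp further along the gene and is the start of the well-known transcript, and its peak had folds of 37.7 and 40.7 in Control and of 47.6 and 44.3 in TRF2KO. At the RefSeq start both TRF2KO folds were above both Control folds as deposited. By percentile they lay between the Control values (88.0 and 87.9 against 84.7 and 89.3). After centring on the median of start peaks the groups overlapped. In the region fit described later, with quantile normalisation, they did not, as at 32976 of all 61610 regions in either direction. At the GENCODE start the TRF2KO folds lay between the Control folds.

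Sirt6 (ENSMUSG00000034748.16, chr10:81621785-81627797, minus strand), a chromatin-bound deacetylase with roles in telomere maintenance and DNA repair, had start-peak folds of 45.6 and 37.8 in Control and of 54.2 and 49.3 in TRF2KO. On folds as deposited the groups did not overlap, as at 5456 of 12882 GENCODE start peaks in either direction. The start of Ankrd24 lies 743 bp away on the other strand. The peak covers it in Control 2 and TRF2KO 2 and ends short of it in Control 1 and TRF2KO 1. Sirt7 (ENSMUSG00000025138.14, chr11:120618372-120625240, minus strand), a nucleolar enzyme that acts on ribosomal DNA transcription, had the lowest start peak, at 19.8 and 12.6 in Control and 19 and 18.6 in TRF2KO. Control 2 was the low library there, and the other three lay close together. A higher peak stood at the far end of Sirt7, over the start of Pcyt2, with folds of 53.2 and 45.0 in Control and of 50.3 and 49.0 in TRF2KO, although the TRF2KO 1 peak ended just outside the gene.

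Among the mitochondrial members, Sirt3 (ENSMUSG00000025486.17, chr7:140863666-140882309, minus strand), the main mitochondrial deacetylase, had folds of 55.5 and 51.8 in Control and of 73.2 and 57.6 in TRF2KO. Its first exon overlaps the divergent Psmd13 gene, a proteasome subunit whose start is 341 bp away inside the same peak. Sirt4 (ENSMUSG00000029524.16, chr5:115478010-115484725, minus strand), whose product removes lipoyl groups and transfers ADP-ribose, had folds of 52.2 and 46.4 in Control and of 55.8 and 51.1 in TRF2KO, with the nearest other coding start 18463 bp away. Sirt5 (ENSMUSG00000054021.6, chr13:43365496-43395203, plus strand), which removes succinyl and malonyl groups, had folds of 36.4 and 32.4 in Control and of 33.4 and 33.6 in TRF2KO. On folds as deposited, both TRF2KO libraries were above both Control libraries at Sirt3, and the groups overlapped at Sirt4 and Sirt5. At 5456 of all 12882 GENCODE start peaks the groups did not overlap, in either direction.

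The comparison of TRF2KO with Control asks whether loss of TRF2 changed how open these promoters were. On the log2 fold centred on each library's median, no sirtuin start peak passed the test (limma, adjusted p under 0.05 over 12882 genes), and 1 of 7 had an unadjusted p under 0.05, as did 14.0% of all genes tested. Over all genes 103 start peaks passed (0.800%), with 30 higher and 73 lower in TRF2KO. The largest member difference was at Sirt6, at 0.21 (SE 0.09, adjusted p = 0.320), followed by Sirt3 at 0.17 (SE 0.09, adjusted p = 0.412). Sirt7 differed by 0.15, Sirt5 by -0.14, Sirt1 by -0.06, Sirt4 by 0.01 and Sirt2 by -0.01. At Sirt2 the 95% interval ran from -0.18 to 0.16, and at Sirt7, the member with the fewest fragments, from -0.23 to 0.53. The median member differed by 0.01, the same as the median over all genes tested. On this scale 4 of 7 members (Sirt3, Sirt4 and Sirt6 higher, Sirt5 lower in TRF2KO) had libraries that did not overlap between genotypes, as did 45.1% of all genes tested. Without centring Sirt4 and Sirt5 overlapped. At its RefSeq start Sirt1 differed by 0.12 (SE 0.11, limma adjusted p = 0.681), and without centring Sirt1 and Sirt2 moved to 0.04 and 0.10. In bulk cells a lower peak cannot tell fewer open cells from less opening per cell.

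Regions beyond the start peaks were compared next. Merging the 4 ATAC lists gave 30 regions in the sirtuin windows, of which 16 had a peak in all 4 libraries and 12 in a single library. Sirt2 carried 14 of the 30. Its MACS peaks numbered 9 and 11 in Control against 5 and 6 in TRF2KO, from lists of 89160 and 100521 against 84776 and 84102 peaks in all. Control 2, with the longest list, also had the highest solved background (4.56), and the part of depth in these numbers was not tested. Of the 14 Sirt2 regions 9 were not in all 4 MACS lists, and the SEACR lists cover each of these 9 in 3 or 4 libraries. Sirt4 had its start peak alone, and Sirt3, Sirt5 and Sirt6 had 2 regions each.

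**Figure D2:**
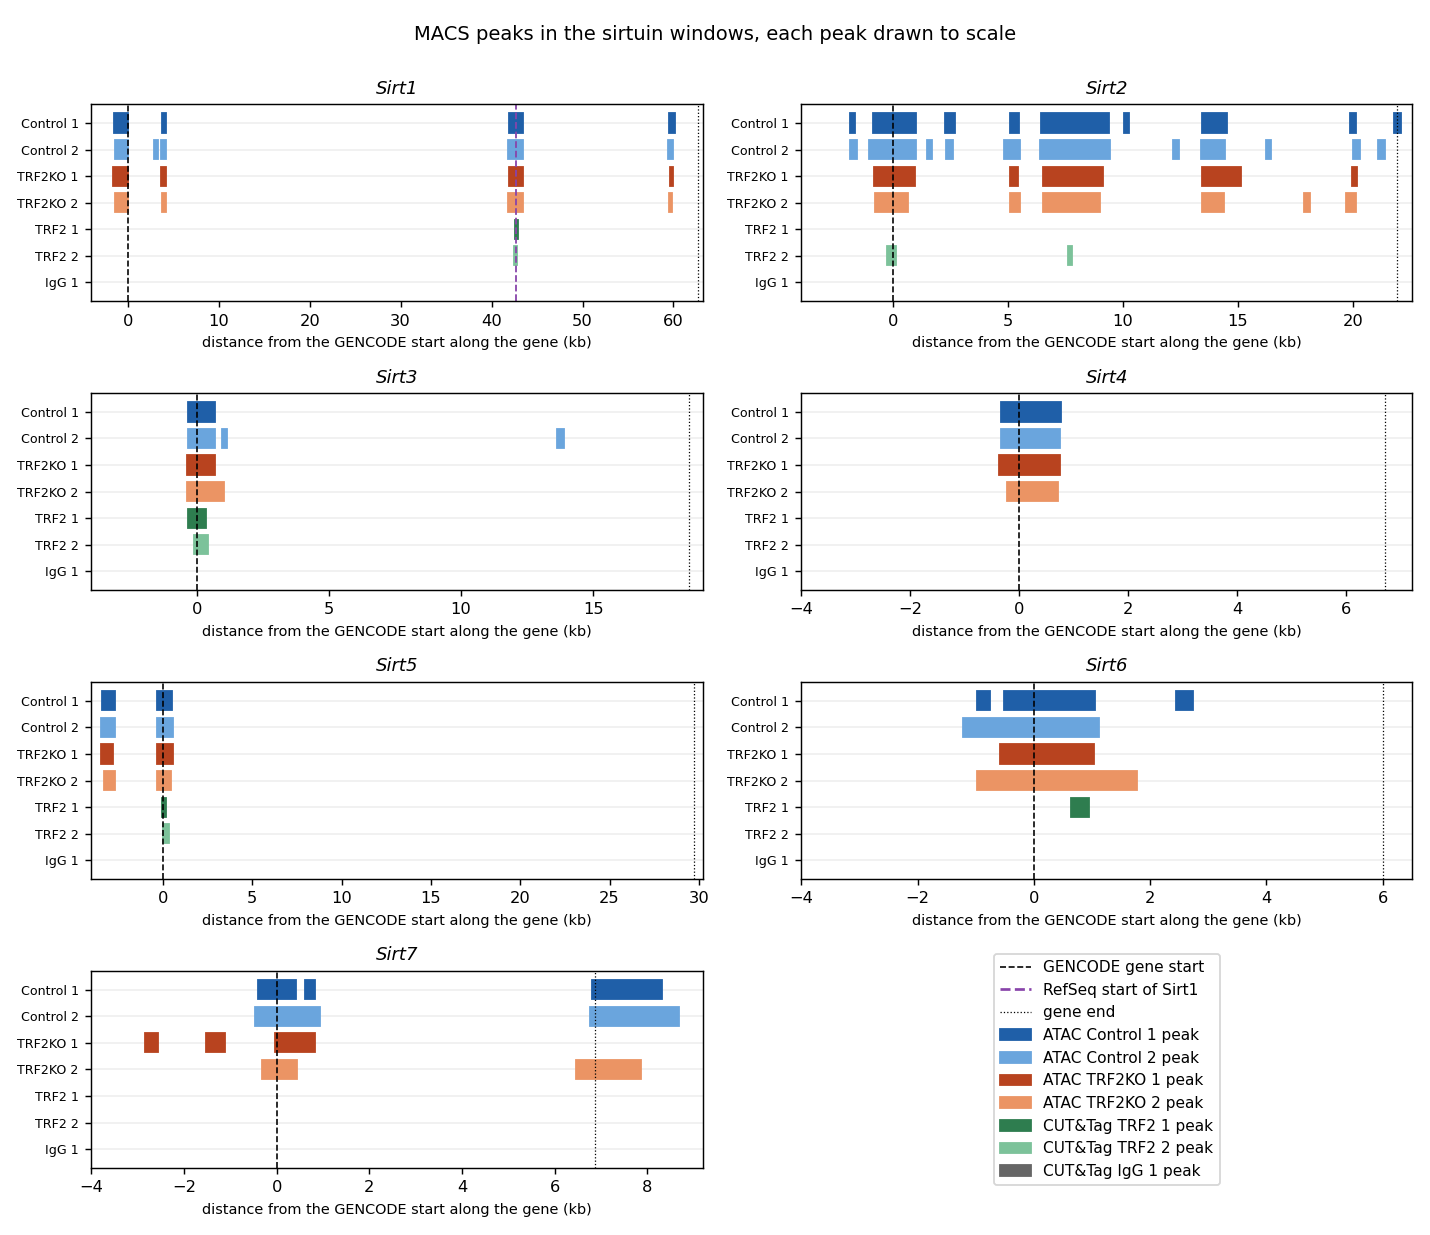
MACS peaks of the 4 ATAC and 3 CUT&Tag libraries in the window of each sirtuin gene, drawn to scale by distance from the GENCODE start along the gene (kb), with a row for each library. Sirt2 holds the most peaks (9 and 11 in Control, 5 and 6 in TRF2KO), TRF2 peaks lie over the RefSeq start of Sirt1 and the starts of Sirt3 and Sirt5 in both replicates, and the IgG rows are empty.

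A broad region in intron 4 of Sirt2 was lower in TRF2KO. It spans 3047 bp (chr7:28773126-28776172, intron 4 of a 16-exon transcript, with the start of a shorter Sirt2 transcript inside it) and had folds of 52.0 and 42.8 in Control and of 28.1 and 24.7 in TRF2KO. Its summit held 225 and 237 fragments in Control and 122 and 108 in TRF2KO, and it fell from percentiles of 89.5 and 89.9 to 79.9 and 78.7 of its list. In a limma fit to all 61610 regions with a peak in all 4 libraries, quantile normalised and added after these values were seen, its log2 difference was -0.81 (SE 0.11, adjusted p = 1.23e-05). That fit called 12.3% of regions in either direction and 7.32% as lower in TRF2KO, so such a call was not rare. The call held with centring on the median (-0.69, limma adjusted p = 2.19e-06) and with no centring (-0.84, adjusted p = 7.54e-05). Leaving out any 1 of the 4 libraries gave -0.76 to -0.87 with limma adjusted p = 0.314 to 0.373, where no region of any gene passed, and -0.65 to -0.73 with centring on the median, where this region passed each time.

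Markers of other cells were compared between genotypes as well. Of 16 such markers 7 had a start peak in all 4 libraries. Of these 7, 5 (Cd68, Dpt, Ckm, Myh1 and Acta2) had both TRF2KO percentiles below both Control percentiles, as did 4 of the 9 MuSC markers. Over all genes tested, 4334 of 12882 start peaks did not overlap between genotypes on centred log2 percentiles, in either direction. The share that was lower in TRF2KO on plain percentiles, as counted for the markers, was not computed. These marker counts thus have no like background. Cd68 went from 46.4 and 53.2 to 24.5 and 27.1, Dpt from 97.9 and 87.0 to 79.9 and 79.8, and Acta2 from 89.4 and 90.2 to 78.4 and 79.8, while Itga7, which marks MuSCs, went from 93.7 and 95.1 to 83.6 and 83.3. Kdr (39.0 and 44.1 in Control, 43.6 and 48.2 in TRF2KO) and Myh11 (66.1 and 71.5, 67.5 and 67.0) overlapped between the genotypes. Acta1 had a peak in both Control libraries and in 1 TRF2KO library, Pecam1 in TRF2KO 1 alone and Cdh5 in Control 2 alone. Summed over the 16 markers, the percentiles came to 500 and 525 in Control and to 461 and 418 in TRF2KO, against 783 and 799 and 774 and 775 for the 9 MuSC markers. The part of these marker differences in the Sirt2 result was not tested.

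No other Sirt2 region passed as lower in TRF2KO. A region in intron 8 (chr7:28780139-28781857) had folds of 39.4 and 29.7 in Control and of 28.6 and 27.2 in TRF2KO, a log2 difference of -0.24 (SE 0.12, limma adjusted p = 0.192). Of the 5 Sirt2 regions tested, 4 had both TRF2KO libraries below both Control libraries, as did 25.3% of all regions tested. The start region was at -0.04 (SE 0.06, limma adjusted p = 0.734), and with centring on the median it turned to 0.24 and passed as higher in TRF2KO (adjusted p = 0.0055). Whether the intron and the start differed from each other in their response was not tested.

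**Figure D3:**
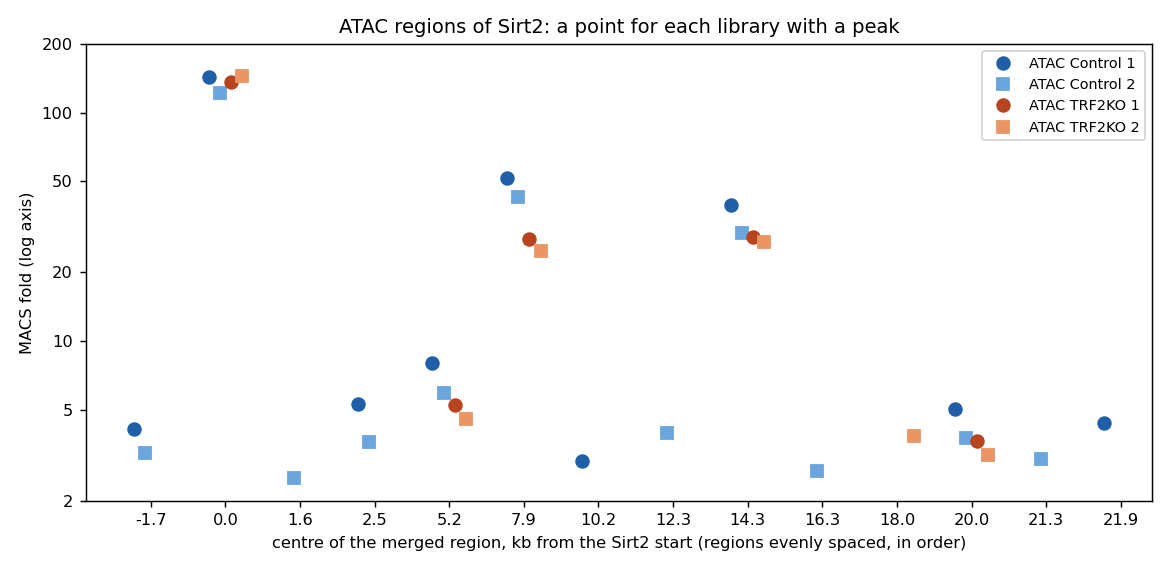
MACS fold (log axis) of each merged ATAC region in the Sirt2 window, in order along the gene, with a point for every library that has a peak there. At 7.9 kb from the start the Control points (52.0 and 42.8) stand above the TRF2KO points (28.1 and 24.7), while at the start all 4 lie between 122 and 145.

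Of the 16 sirtuin regions tested, 2 passed in this fit, beside 12.3% of all regions tested. The other was the start region of Sirt6 (chr10:81626019-81629017), which was higher in TRF2KO by 0.31 on the log2 scale (SE 0.09, limma adjusted p = 0.0308). That call rested on the scaling. It was lost with no centring, where the estimate was similar but its SE larger (0.32, SE 0.16, limma adjusted p = 0.264). It was kept with centring on the median (0.46, limma adjusted p = 2.26e-04), and the start-peak fit did not make it. Leaving out any 1 library with quantile normalisation gave 0.28 to 0.35. The median of all regions was 0.15 lower in TRF2KO on the log2 scale before scaling (3.62 against 3.77), while that of start peaks was 0.10 higher (5.63 against 5.53). With centring on the median, 11390 of all 61610 regions passed as higher in TRF2KO and 4606 as lower. Of the 16 sirtuin regions 6 passed, of which 5 lay at starts and were higher in TRF2KO. These were Sirt6, Sirt3 (0.42, limma adjusted p = 2.81e-04), the RefSeq start of Sirt1 (0.37, adjusted p = 0.0048), Sirt2 and Sirt4 (0.26, adjusted p = 0.0297). With no centring 1 sirtuin region passed, the Sirt2 intron. Whether the sirtuin start regions changed thus depended on the scaling. Over all regions the split of higher and lower calls was 3044 and 4511 as fitted, 11390 and 4606 with centring on the median and 823 and 4231 with no centring.

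**Figure D4:**
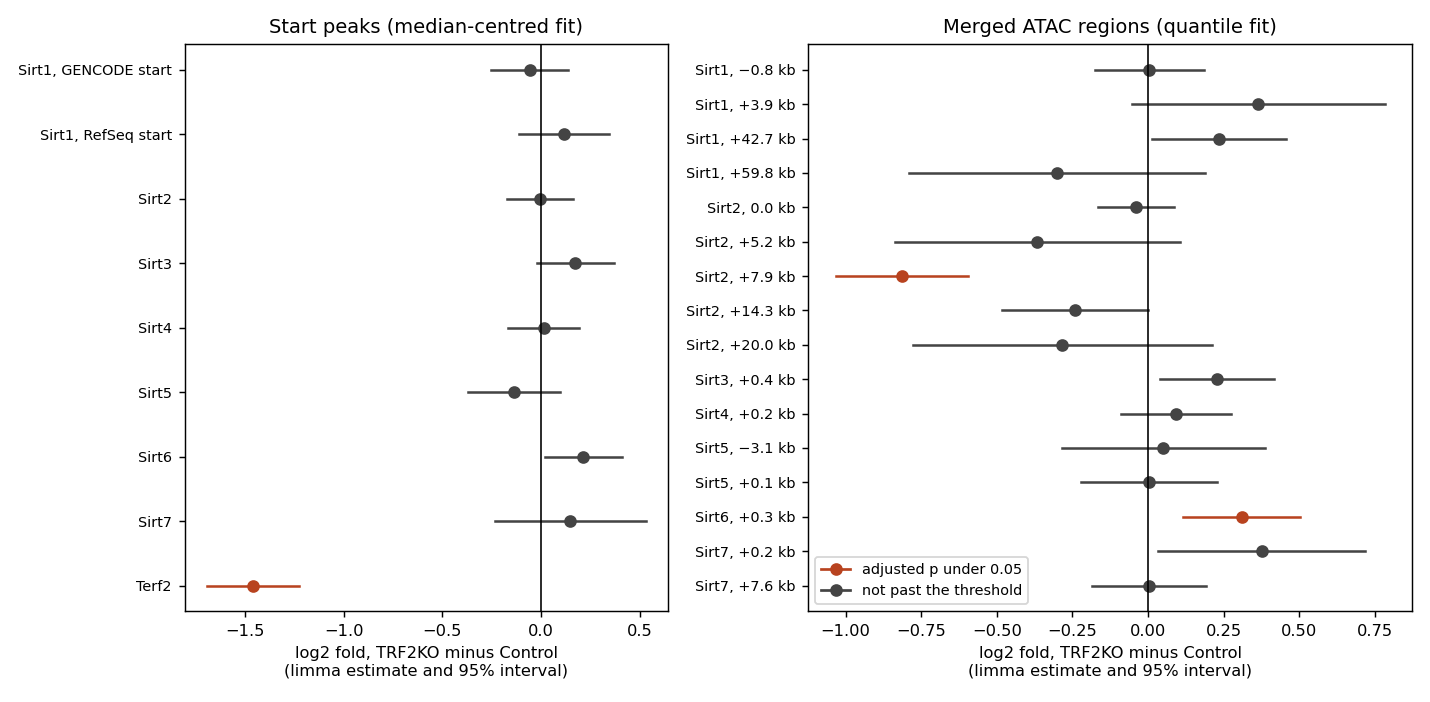
Log2 difference in MACS fold, TRF2KO minus Control, with 95% limma intervals from 2 libraries a group, for the start peaks of the members and Terf2 (left) and for the 16 sirtuin regions (right, named by gene and by the distance of the region's centre from the GENCODE start). The Sirt2 region at 7.9 kb (-0.81) and the Sirt6 start region (0.31) pass among regions, and only Terf2 (-1.46) among the start peaks drawn.

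Peaks found in a single genotype were few. Of the 30 regions, 2 had a peak in both Control libraries and in neither TRF2KO library, and none the reverse, against 5.61% of all 122720 merged regions specific to either genotype. Both lay in the Sirt2 window, upstream of the start (chr7:28764836-28765152, folds of 4.14 and 3.24) and in intron 2 (chr7:28768980-28769405, folds of 5.29 and 3.60). Both were low peaks, and the SEACR lists of all 4 libraries cover them. With the SEACR or the GoPeaks lists no region in the windows was specific to a genotype, and without Control 1 the number with MACS rose to 8, without Control 2 to 5 and without TRF2KO 2 to 4. Summed over the 7 windows, peaks covered 18243 and 21048 bp in Control and 17184 and 17105 bp in TRF2KO, a difference of -2501 bp (exact two-sided permutation test, p = 0.333, the smallest that 2 against 2 libraries allow). That is -12.7% of Control, beside -13.5% for the whole lists. The part of the higher background of Control 2 in this difference was not tested. Sirt2 made up most of the difference, at 8190 ± 854 bp (SD, n = 2) in Control and 6366 ± 470 bp in TRF2KO. Without Sirt2 the windows covered 11456 ± 1129 bp and 10779 ± 414 bp.

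TRF2 CUT&Tag asks where the protein lay in control MuSCs after injury, which is another state than that of the ATAC libraries, and per the labels in a single hind limb muscle. Within 500 bp of the GENCODE start, Sirt3 and Sirt5 had a TRF2 peak in both replicates (2 of 7, against 21.3% of protein-coding genes). With RefSeq starts, an alternative added after the data were seen, Sirt1 joined them (3 of 7, against 24.2%). No sirtuin gene had an IgG start peak (0.0822% of genes), and no IgG peak lay anywhere in the 7 windows. The single IgG library allows no test of TRF2 against IgG.

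The TRF2 peaks rested on few fragments. At the RefSeq start of Sirt1 the folds were 6.35 and 5.39 with 8 and 7 fragments at the summit (95% Poisson intervals 3.45 to 15.8 and 2.81 to 14.4). At Sirt3 they were 5.84 and 5.06 with 11 and 7 fragments, in a peak shared with Psmd13. At Sirt5 they were 5.22 and 3.41 with 7 and 4 fragments, the replicate 2 peak lying near the floor of its list at percentile 0.265. These intervals overlap, so the 3 genes could not be ranked by TRF2 signal. With a stricter threshold of 5 on −log10 q, no sirtuin gene kept a TRF2 start peak in both replicates. The share of all genes that did so was not computed, so this loss cannot be set beside that of other genes.

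At other members a TRF2 peak was seen in a single replicate or in none. Sirt2 had peaks in replicate 2 alone, over the start (fold 5.48, 10 fragments) and within the intron 4 region that was lower in TRF2KO (fold 4.70, 7 fragments, the sequence printed above). Sirt6 had a peak in replicate 1 alone (chr10:81626846-81627155, fold 3.89, 7 fragments), beyond the printed stretch and in the annotated UTR. Sirt4 and Sirt7 had none in either replicate.

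Set against genes of similar openness, the family was mixed. With RefSeq starts, the share of genes with a TRF2 start peak in both replicates rose from 4.56% in the lowest quintile of ATAC start peaks through 16.8%, 35.2% and 54.4% to 81.1% in the highest. Sirt2 was in the highest quintile, where 93.7% of genes had a TRF2 peak in at least 1 replicate, and had it in 1. Sirt5 was in quintile 2 and had both, and Sirt7 was in quintile 1 and had none. Sirt1, Sirt3, Sirt4 and Sirt6 shared the middle quintile with 2, 2, 0 and 1 replicates.

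**Figure D5:**
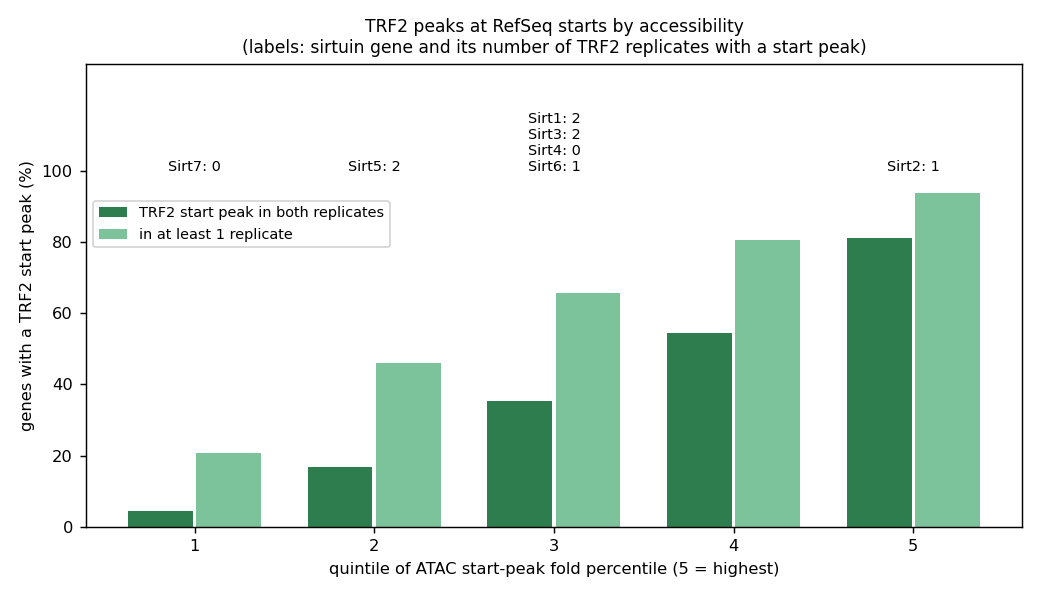
Percentage of genes with a TRF2 start peak in both replicates (dark bars) and in at least 1 (light bars), by quintile of ATAC start-peak fold percentile at RefSeq starts, with each sirtuin gene and its number of TRF2 replicates above its quintile. The dark bars run from 4.56% to 81.1%, and Sirt2, in the highest quintile, has a peak in 1 replicate.

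By sequence, Sirt1 was the only member whose TRF2 peaks held the G-quadruplex pattern. Both of its peaks (76.7% and 77.3% G and C) reach into the capitals at the 3′ end of the Sirt1 sequence above. The pattern was in 25.4% and 20.7% of all TRF2 peaks and in 10.4% of IgG peaks. Median G and C content was 59.5% and 58.0% in TRF2 peaks and 50.3% in IgG peaks, and its part in these shares was not tested. The peaks of Sirt2, Sirt3, Sirt5 and Sirt6 held none. Both Sirt5 peaks held GCATGCGC, both Sirt3 peaks held CCAAT and the ETS core CCGGAAG, and the Sirt2 intron peak held 1 CAGCTG, an E-box that myogenic factors read. The telomere unit TTAGGG was in the Sirt6 peak alone, against 12.8% and 10.3% of all TRF2 peaks and 10.4% of IgG peaks.

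The genes around the sirtuins in NAD+ metabolism and lysine deacetylation were read from 4 lists. Beside their counts stand the shares of all protein-coding genes, which are 58.8% with a start peak in all 4 ATAC libraries, 14.0% of those tested at an unadjusted p under 0.05 and 21.3% with TRF2 in both replicates. The lists were open at 75% to 93.8% of their genes, and TRF2 peaks were more frequent at more open starts, whose part in the TRF2 shares of the lists was not tested. TRF2 folds are given for the 2 genes of each list with the highest lower value over both replicates, and differences between genes in TRF2 fold were not tested. No listed gene had a start peak that passed the limma test. Of the 12 genes of NAD+ synthesis 9 had a start peak in all 4 libraries, with 1 at an unadjusted p under 0.05 and a median log2 difference of 0.07. The largest difference there was at Nmrk2, a muscle-enriched nicotinamide riboside kinase, with folds of 6.44 and 6.84 in Control and of 3.89 and 3.63 in TRF2KO (log2 difference -0.92, SE 0.22, limma adjusted p = 0.0982). Nampt, the rate-limiting enzyme of the NAD+ salvage route, had TRF2 folds of 10.7 and 11.6 and ATAC folds of 102 and 89.1 in Control and of 118 and 106 in TRF2KO, and Nmrk1 had TRF2 folds of 6.24 and 7.07. In all, 4 of the 12 had a TRF2 start peak in both replicates, or 33.3%.

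Among the 8 other NAD+ users 6 were open in all 4 libraries, with 1 at an unadjusted p under 0.05 and a median of -0.01. Sarm1, an NAD+ hydrolase of axons, differed most (-0.22, SE 0.08, limma adjusted p = 0.267), and 50% of the list had TRF2 in both replicates, among them Parp3 (folds 5.35 and 6.27) and Parp2 (5.26 and 8.30). Of the 11 zinc-dependent deacetylases, the enzymes that remove acetyl groups without NAD+, 9 were open in all 4, with 2 at an unadjusted p under 0.05 and a median of -0.01. Hdac2 differed most, with ATAC folds of 41.0 and 38.0 in Control and of 52.6 and 51.7 in TRF2KO (0.30, SE 0.09, limma adjusted p = 0.180), and it had TRF2 folds of 8.71 and 11.6, beside 7.5 and 8.77 at Hdac1. TRF2 was in both replicates at 54.5% of the list. Of the 16 regulators and substrates of sirtuins 15 were open in all 4, with none at an unadjusted p under 0.05 and a median of 0.07. Kat2b, a lysine acetyltransferase, differed most (-0.22, SE 0.12, limma adjusted p = 0.422), and Acss2, an acetyl-CoA synthetase that SIRT1 activates, and H2afz, a histone variant, had TRF2 folds of 11.6 and 9.06 and of 5.98 and 8.55. TRF2 was in both replicates at 25% of that list, beside 28.6% of the sirtuins at GENCODE starts.

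The genes most like each member over the 7 libraries were found by the mean absolute difference in fold percentile, 0 where there was no start peak. They were Ppil6 for Sirt1 (0.130 points), Cep152 for Sirt2 (0.436), Aste1 for Sirt3 (1.05), Xrcc5 for Sirt4 (0.0667), E130116L18Rik for Sirt5 (0.644), Mrfap1 for Sirt6 (0.216) and Nt5c1a for Sirt7 (0.628). At its RefSeq start Sirt1 was nearest to Rala (0.935 points).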

How the data were processed

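ATAC (2 Control, 2 TRF2KO) and CUT&Tag (2 TRF2, 1 IgG) libraries of mouse MuSCs were read as deposited peak lists. Per the submitters' processing notes and the study's methods, the authors aligned reads to mm10 with Bowtie2, removed duplicates with Picard 3.1.1, kept unique proper pairs, and called peaks in each library with MACS3 (3.0.2 for ATAC, 3.0.0 for CUT&Tag). How Tn5 offsets were handled was not given in the sources used here. The deposited MACS folds are ratios to background in the same library, with −log10 p and q. The authors' SEACR 1.3 files hold signal (normalized coverage), their GoPeaks files positions only, and their DiffBind consensus files a score of unstated scale. Only positions were used from these 3 kinds of file.

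A start peak was the highest-fold MACS peak overlapping 500 bp on either side of a gene start. Folds were compared with limma 3.58.1 (R 4.3.3, lmFit and eBayes with trend, Benjamini-Hochberg over all features tested), and the script was tested on simulated data. The region fit and the RefSeq starts were added after the data were seen. Alternatives were wider or other starts, a −log10 q of at least 5, other peak callers, other scalings, the replicate block and leaving out each library. Genes named were the 7 members, Terf2, the largest differences and highest TRF2 folds of each list, and each member's nearest pattern. The members, lists and tests were chosen with earlier results of these data known. No read counts were analysed here, so depth is known only through the fragments and the background solved from the peaks.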

Additional observations from a re-analysis of the deposited data

How the results depend on the processing

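All 7 sirtuin genes kept an ATAC start peak in all libraries under every alternative run but SEACR, which gave 6 (Sirt5 had 3 of 4 libraries). None had an IgG start peak with wider or other starts or stricter peaks, and no sirtuin start peak passed limma, while the calls over all genes ranged from 18 to 109 higher and from 45 to 213 lower against 30 and 73. At start peaks the same-numbered libraries showed little sign of pairing (correlation 0.0644 between Control 1 and TRF2KO 1, with 2 pairs), and pairing over regions was not checked. With the replicate block, 0 sirtuin start peaks, 2 sirtuin regions, 18 higher genes and a summed width of -2501 bp were found. Over all regions 3584 then passed as higher and 5027 as lower, against 3044 and 4511 without the block. Without centring the Sirt1 and Sirt2 differences turned to 0.04 and 0.10, and at the RefSeq start Sirt1 turned to 0.12. Among regions, the Sirt2 start turned from -0.04 to 0.24 with centring on the median. The Sirt5 start, at -0.14 among start peaks, was at 0.0025 as a region and at 0.11 with centring on the median. Leaving out each ATAC library gave -0.14 to 0.02 for Sirt1, -0.11 to 0.10 for Sirt2 (0.03 without Control 1) and -0.10 to 0.39 for Sirt7, the -0.10 without Control 2. TRF2 start peaks in both replicates fell from 2 to 0 sirtuin genes at a −log10 q of at least 5, where the share of all genes was not computed. Each replicate taken alone gave 2 to 3 sirtuin genes.

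Genotype-specific regions numbered 0 with SEACR and with GoPeaks, and 3 to 8 without 1 library (8 without Control 1). Sirtuin regions that passed numbered 6 with centring on the median and 1 with no centring. Over all 61610 regions, 11390 and 823 passed as higher in TRF2KO in these settings, and 4606 and 4231 as lower. The Sirt2 intron region ranged from -0.87 to -0.76 without 1 library, and from -0.73 to -0.65 with centring on the median as well. With quantile normalisation and 3 libraries 0 regions of any gene passed, while with centring on the median and without Control 1, 7677 passed as higher and 2650 as lower in TRF2KO, and the cause was not tested. The summed width differed by -3903.5 to -1098.5 bp without 1 library, by -4766 bp with SEACR and by -3095 bp with GoPeaks. The few fragments of TRF2 peaks limit what could be seen at Sirt4 and Sirt7.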

Other observations

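The authors' consensus lists, 1 per genotype, have no region over the Sirt6 and Sirt7 windows, although all 4 MACS lists have a start peak at both genes. Of 61610 merged regions with a MACS peak in all 4 libraries, 2649 (4.30%) lie in neither consensus list. The other 5 sirtuin genes are covered in both lists.

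Within Sirt1, 4 regions had a peak in all 4 libraries. The one at the 3′ end (chr10:63321579-63322303, exon 8) was low, with folds of 8.98 and 5.76 in Control and of 4.80 and 5.67 in TRF2KO (limma log2 difference -0.30, SE 0.24, adjusted p = 0.452). An intronic one (chr10:63377481-63378099) had folds of 9.44 and 7.92 in Control and of 9.38 and 10.4 in TRF2KO (0.36, SE 0.20, limma adjusted p = 0.263). Neither held a TRF2 or an IgG peak.

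Upstream of Sirt5, an intergenic region (chr13:43362004-43362841) had folds of 20.7 and 17.3 in Control and of 22.6 and 14.5 in TRF2KO, and it held no TRF2 peak in either replicate.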
